A study of Mus musculus with 106 samples.

Results

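Bud-stage primordial germ cells (PGCs), from which sperm and eggs descend, were compared with posterior mesoderm, their somatic neighbours of the same stage, across 18193 genes. The cells were taken by their titles, which gave 8 PGCs and 10 posterior mesoderm cells at the Early/Mid-Bud (E/MB) stage, 18 of the 106 cells in the series. Both groups came from wild-type embryos of the C57BL/6 strain, and no treatment or transgene is named for either. PGCs were chosen for transcripts of Blimp1 (Prdm1) and stella (Dppa3). Posterior mesoderm cells came from the base of the allantois and were chosen for Oct4 (Pou5f1) and Hoxb1 without Blimp1. Each array carried the amplified cDNA of 1 cell picked at random from a dissected and dissociated fragment, and the study used such arrays to follow the germ line from the pre-streak (PS) epiblast to embryonic day 8.25 (E8.25). The other 9 groups were PS epiblast, germ line precursors of the Early/Mid-Streak (E/MS) stage and the Late-Streak/0-Bud (LS/0B) stage, PGCs at the early head fold (EHF) stage and at E8.25, Blimp1+ Hoxb1+ cells labelled E/MB or EHF, and Blimp1 knockout cells at 2 stages. The 4 Blimp1+ Hoxb1+ cells given here as EHF are so in their source names and descriptions, while their titles read E/MB. Cells are numbered as biological replicates in their titles, but no embryo, litter or pool is named, so the cells of a group were taken as 1 sample, and neither tests between groups nor p-values are given.

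In the mouse, PGCs arise from the proximal posterior epiblast under BMP and WNT signals, and their founders lie among cells that become the allantois and other extraembryonic mesoderm. Blimp1, PRDM14 and AP2-gamma (Tfap2c) are the transcriptional regulators that set up the germ cell programme, during which mesoderm genes that the founders had begun to transcribe are shut off and pluripotency genes such as Sox2 come back. Their neighbours at the base of the allantois instead go through an epithelial-to-mesenchymal transition and take on a posterior identity, read out by Hox, Cdx and T-box genes.

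Levels are log2 of the deposited array signal, raised where lower to a floor of 6.13, the level of probe sets for receptors and hair proteins that such cells are not known to use. Detection of a gene means a signal above the 95th percentile of the same probe sets on that array. Differences are PGC mean minus mesoderm mean in log2 units, and errors are SD over cells (n = 8 and n = 10). Folds are given only as lower bounds, where no cell of the dimmer group was detected. These bounds hold for signals as deposited and were not computed under other scalings. Rare transcripts are lost by chance when cDNA of 1 cell is amplified, so a gene at the floor is not shown to be absent.

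The array sets differed in ways that follow the 2 cell types. Signals of the hybridisation controls, which are added to the labelled sample, averaged 9.94 ± 0.19 on PGC arrays and 11.39 ± 0.33 on mesoderm arrays, where the lowest was 10.93, above all 96 other cells of the series. Detected genes numbered 7197 ± 578 in PGCs and 6719 ± 541 in mesoderm cells. Array set and cell type cannot be told apart here. On the arrays of the other 9 groups, Blimp1+ Hoxb1+ and knockout cells included, these controls were no higher than 10.90.

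The genes used for selection followed the labels. Prdm1 was at 10.14 to 11.28 in PGCs and at the floor in all 10 mesoderm cells. Dppa3 was at 11.56 to 12.22 in PGCs and at the floor in mesoderm, and Hoxb1 was at the floor in all 8 PGCs and at 9.24 to 11.81 in mesoderm. Pou5f1 was detected in 8 of 8 PGCs and in 10 of 10 mesoderm cells, at means of 10.70 ± 0.52 in PGCs and 9.85 ± 0.91 in mesoderm. Ifitm3 (fragilis), which the labels also name for screening, averaged 12.75 ± 0.18 in PGCs and 9.78 ± 1.33 in mesoderm.

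Promoter windows of 3 leading genes, from RefSeq on GRCm38.p6, are shown because the differences below include Dnmt3b, Dnmt3a and Uhrf1, through which methyl groups are placed and kept on CpG dinucleotides. The windows run from 250 bases before to 50 bases after the gene's start, 5′ to 3′ on the gene's strand, with each CG in capitals. CG reads the same on both strands, and 94.6% of the 32851 windows in the table hold at least 1, with a median of 7.
Sox2: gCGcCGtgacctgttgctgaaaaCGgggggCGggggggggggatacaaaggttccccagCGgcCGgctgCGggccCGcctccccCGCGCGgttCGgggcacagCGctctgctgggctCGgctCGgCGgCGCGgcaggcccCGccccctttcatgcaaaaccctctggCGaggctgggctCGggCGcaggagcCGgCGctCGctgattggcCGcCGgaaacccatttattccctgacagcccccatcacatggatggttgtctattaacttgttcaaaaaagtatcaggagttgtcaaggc
Fgf3: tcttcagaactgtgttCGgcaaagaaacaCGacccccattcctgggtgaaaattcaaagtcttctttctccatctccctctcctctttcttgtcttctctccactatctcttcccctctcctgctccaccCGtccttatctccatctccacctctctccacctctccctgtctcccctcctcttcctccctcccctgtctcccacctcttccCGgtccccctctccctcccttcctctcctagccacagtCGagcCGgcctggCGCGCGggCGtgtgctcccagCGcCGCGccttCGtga
Mesp1: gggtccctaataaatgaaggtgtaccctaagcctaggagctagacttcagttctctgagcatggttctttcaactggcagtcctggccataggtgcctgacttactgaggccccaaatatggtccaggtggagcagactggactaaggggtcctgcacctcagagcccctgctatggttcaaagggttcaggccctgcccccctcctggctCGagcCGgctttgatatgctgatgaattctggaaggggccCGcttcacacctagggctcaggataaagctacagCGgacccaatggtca
The Sox2 window (chr3:34649745-34650044, plus strand) holds 27 CG, and 15.5% of all windows hold at least as many. The Fgf3 window (chr7:144838362-144838661, plus strand) holds 14, a number reached by 36.3% of windows. The Mesp1 window (chr7:79793541-79793840, minus strand) holds 4, reached by 68.6% of windows. Methylation itself was not measured in these cells. For the leading genes, 1 window per gene was used, that with the lowest start coordinate, and genes on 1 chromosome were left out. The median number of CG was 13.5 over the windows of 6 of the 15 leading genes higher in PGCs (range 2 to 27). It was 20 over those of 8 of the 15 leading lower genes (range 4 to 38). The median of 7 covers all windows without that choice.

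Past 1 log2 unit, 1534 genes were higher in PGCs, which is 8.43% of those compared, and 659 were lower, which is 3.62%. In either direction the share was 12.1%, and these shares are the background for every gene list below. Differences of at least 2 units were seen for 252 genes higher and 89 lower in PGCs, and differences of at least 3 units for 41 and 11. The lowest PGC lay above the highest mesoderm cell for 223 genes (1.23%), and the highest PGC lay below the lowest mesoderm cell for 90 (0.495%). The first of these counts depended on scaling: it was 127 with quantile normalization, 122 with equal medians, 67 with poly-A scaling and 37 with scaling to the spiked lys control transcript, where the second was 104. In all, 32 genes were detected in every PGC and no mesoderm cell, and 7 in every mesoderm cell and no PGC. The median difference was 0.16 over the 7250 broadly detected genes, those above the limit on at least 50% of the arrays, and this shift turned to -0.39 with scaling to lys. With that scaling 740 genes were higher and 1783 lower, so the split of 69.9% higher among called genes became 29.3%. Scaling to equal medians gave 52.5%, quantile normalization 52.9% and scaling to all poly-A controls 55.3%.

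The leading genes in PGCs were transcription factors of the germ cell and pluripotency programmes, a cytokine signalling inhibitor and surface proteins. Sox2, a pluripotency and neural transcription factor, was at 9.43 in the lowest PGC, with a median of 11.35 and a highest value of 11.79, and at the floor in all 10 mesoderm cells. All PGCs thus lay above all mesoderm cells, and the gene was at least 18.2-fold higher in PGCs (difference 5.01). Socs2, a suppressor of cytokine and growth hormone receptor signalling, ran from 7.79 through a median of 11.25 to 11.40 in PGCs, and from 6.13 through a median of 6.13 to 7.08 in mesoderm. It was detected in 8 of 8 PGCs and in 1 of 10 mesoderm cells, and the groups did not overlap (difference 4.31). Over the other floors, scalings and probe set averaging, the smallest difference of Socs2 was 1.29. AU015836 was at 10.37 to 11.79 in PGCs, with a median of 11.27, and at the floor in every mesoderm cell, which makes it at least 17.6-fold higher in PGCs.

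**Figure D1:**
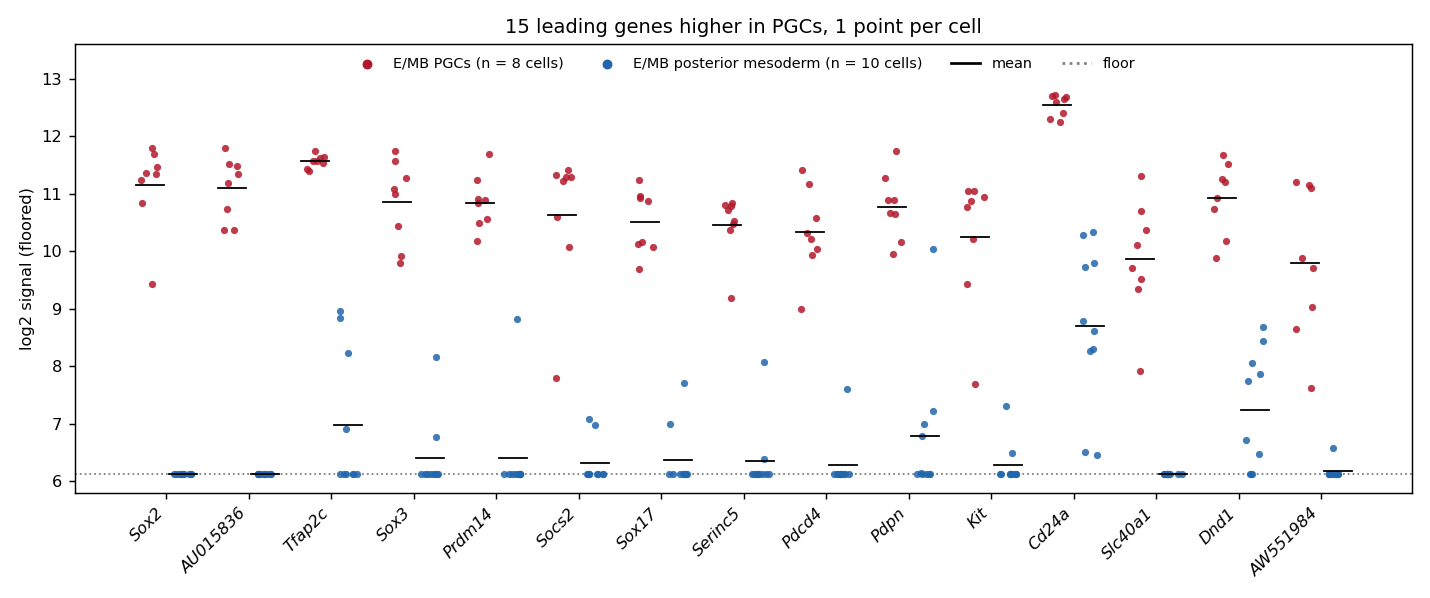
Levels of the 15 leading genes higher in PGCs, in order of the difference, as log2 signal with a floor; each point is 1 cell, black bars are means, PGCs (8 cells, red) stand left of posterior mesoderm (10 cells, blue) and the dotted line is the floor of 6.13. Every gene was detected in all 8 PGCs, and only Pdpn has a mesoderm cell (10.04) above the lowest PGC (9.95).

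Among regulators, Tfap2c was held within 11.39 to 11.74 in PGCs (median 11.57) and was detected in 3 of 10 mesoderm cells, the highest at 8.95. The 2 other detected probe sets of Tfap2c differed in the same direction. Prdm14 ran from 10.17 to 11.68 in PGCs (median 10.86) and reached 8.82 in the 1 mesoderm cell with a detected signal (difference 4.44). Further members of the SOX family of DNA-binding proteins were higher: Sox3, a close relative of Sox2, differed by 4.45 and Sox17, a regulator of endoderm in the mouse, by 4.13. Of 18 Sox genes measured beside Sox2, these 2 were higher by at least 1 log2 unit, while Sox11 was lower in PGCs by 1.79, with a mean of 6.51 ± 1.08 in PGCs and 8.31 ± 0.82 in mesoderm. Foxa2, which marks endoderm together with Sox17, was detected in 2 of 8 PGCs and in 0 of 10 mesoderm cells, and Afp, Ttr, Apob and Cubn in none of the 18.

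The germ cell specification list had 9 of 10 measured members higher and 0 lower by at least 1 log2 unit, against 8.43% and 3.62% of all genes, with a median difference of 3.82 (3.68 over the 7 members not used to choose cells). The count of 9 includes Prdm1, Dppa3 and Ifitm3, by which cells were chosen or screened, so it is not independent of that choice. Kit, the receptor that PGCs need to survive and migrate, had a median of 10.81 in PGCs and 6.13 in mesoderm (difference 3.97). Dnd1, an RNA-binding protein that protects germ cell transcripts, averaged 10.92 ± 0.63 in PGCs and 7.24 ± 1.02 in mesoderm. Alpl, the alkaline phosphatase by which PGCs are stained, was detected in 8 of 8 PGCs but also in 9 of 10 mesoderm cells (10.61 ± 0.36 in PGCs and 9.06 ± 1.13 in mesoderm), and Ifitm1 differed by 1.18, or by less than 1 in 3 of 4 other scalings. Lin28a, an inhibitor of let-7 maturation, was the exception at -0.94. Of 12 genes of later germ cells only Tex101, which encodes a surface protein of germ cells, passed 1 unit: it was at 8.29 to 9.20 in PGCs and at the floor in every mesoderm cell, at least 3.59-fold higher in PGCs. Its lowest mean among PS epiblast and the 3 PGC groups lay 2.23 above its highest among mesoderm, Blimp1+ Hoxb1+ and knockout groups. Tex101 was thus not particular to PGCs. Ddx4 was detected in 4 of 8 PGCs and in 4 of 10 mesoderm cells, and Dazl in none.

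Of 20 pluripotency factors measured, 5 were higher by at least 1 log2 unit, Sox2 among them, and 1 was lower (against 8.43% and 3.62% of all genes). Nanog averaged 9.74 ± 0.87 in PGCs and 6.61 ± 1.06 in mesoderm, where 2 of 10 cells had it. Klf2, a Krüppel-like factor of the naive state, was detected in 8 of 8 PGCs and in 0 of 10 mesoderm cells and was at least 2.91-fold higher. Klf5 (1.41) and Gdf3 (1.91), a TGF-beta family ligand, were also higher. The lower one was Tdgf1, the Nodal co-receptor, detected in 0 of 8 PGCs and in 3 of 10 mesoderm cells, whose difference of -1.21 became -0.77 without mesoderm replicate 7. Of 13 primed epiblast genes, 8 were detected in no cell of either group, among them Otx2, Fgf5, Pou3f1 and Lefty1. In PGCs, 2 of the 13 were higher, the ligand gene Nodal (1.44) and the secreted Wnt antagonist Sfrp2 (1.10, under 1 in 3 of 4 other scalings), and 2 lower, Dnmt3b and the activin antagonist Fst (-1.73).

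At the cell surface, Cd24a, a glycosylphosphatidylinositol-anchored sialoglycoprotein, stood at 12.53 ± 0.19 in PGCs and 8.70 ± 1.40 in mesoderm, and Pdpn (podoplanin, a mucin-type glycoprotein) at 10.78 ± 0.57 in PGCs and 6.79 ± 1.22 in mesoderm. Slc40a1, the iron exporter ferroportin, was detected in 8 of 8 PGCs and in 0 of 10 mesoderm cells and was at least 7.54-fold higher in PGCs. Tfrc, the transferrin receptor that brings iron in, was higher as well (difference 1.63). Serinc5, a membrane protein linked to serine-derived lipids, differed by 4.11 and Pdcd4, an inhibitor of translation initiation, by 4.05. AW551984 was detected in 8 of 8 PGCs and in 0 of 10 mesoderm cells and was at least 7.13-fold higher in PGCs.

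On the mesoderm side, the leading genes encoded a growth factor, mesoderm regulators, adhesion proteins and a DNA methyltransferase. Fgf3, a secreted FGF ligand, was at the floor in all 8 PGCs and ran from 8.37 through a median of 10.23 to 11.01 in mesoderm. It was at least 8.87-fold lower in PGCs (difference -3.87). Gja1, the gap junction protein of the connexin family, was at the floor in all 8 PGCs and at 7.76 to 10.58 in mesoderm (median 10.22), at least 8.09-fold lower in PGCs. Aplnr, the receptor for apelin and ELABELA, was at the floor in all 8 PGCs, and in mesoderm it ran from 6.13 to 11.64 with 8 of 10 cells detected.

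**Figure D2:**
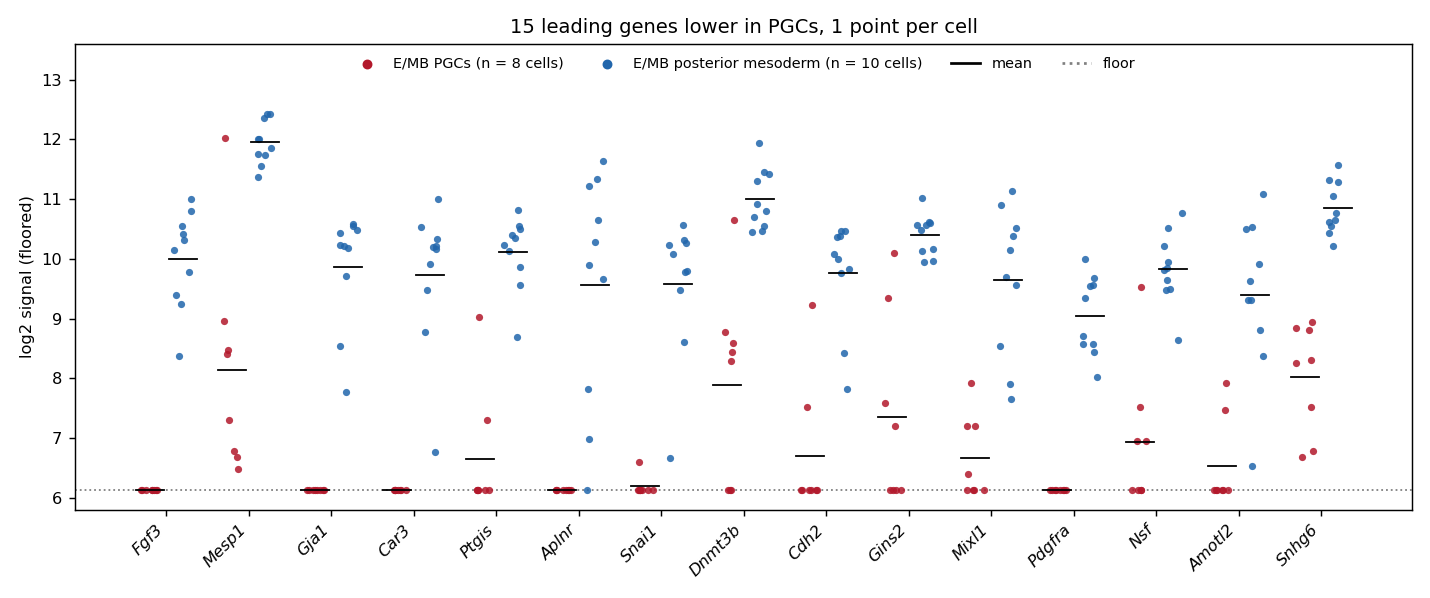
Levels of the 15 leading genes lower in PGCs, in order of the difference, as log2 signal with a floor; each point is 1 cell, black bars are means, PGCs (8 cells, red) stand left of posterior mesoderm (10 cells, blue) and the dotted line is the floor of 6.13. In Mesp1 and Dnmt3b 1 PGC, replicate 4 in both, lies within the mesoderm range, at 12.02 and 10.65. The groups of other genes shown overlap too. In Cdh2, PGC replicate 5 is at 9.22 and the lowest mesoderm cell at 7.83. In Amotl2, PGC replicate 4 is at 7.92 and the lowest mesoderm cell at 6.52.

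Mesp1, a bHLH regulator of the earliest mesoderm, was at 6.48 in the lowest PGC, with a median of 7.85 and a highest value of 12.02, and at 11.37 to 12.43 in mesoderm (median 11.94). A single PGC, replicate 4, made the groups overlap: the next highest PGC was at 8.96, and without replicate 4 the difference of -3.81 became -4.37. That cell also had the highest Dnmt3b of the PGCs (10.65) and their lowest Socs2 (7.79), Kit (7.70) and Slc40a1 (7.91), while its Sox2 (11.24) lay near the PGC median. It had 8 of the 15 leading lower genes detected, as had replicate 7, against 0 to 5 in the other PGCs and 13 to 15 in mesoderm cells. All 15 leading higher genes were detected in it, as in every PGC, and 1 to 4 of them in each mesoderm cell. The leading genes were chosen from these same cells, so these counts follow in part from that choice and do not place any cell.

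Nascent mesoderm factors had 6 of 17 measured members lower by at least 1 log2 unit and 0 higher (median -0.28). Mixl1, a homeobox gene of the streak, averaged 6.66 ± 0.69 in PGCs and 9.64 ± 1.23 in mesoderm. Cdx1 (-2.46) and Cdx4 (-1.49), which pattern the posterior axis, and the presomitic regulators Msgn1 (-2.44) and Tbx6 (-1.34) were lower too. Cdx2 went with neither group (0.30) and was detected in 8 of 8 PGCs and in 10 of 10 mesoderm cells, as was Evx1 (-0.75). Eomes was detected in 0 of 8 PGCs and in 1 of 10 mesoderm cells.

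Factors of the allantois and lateral mesoderm had 5 of 22 members lower and 0 higher in PGCs (median -0.18). Isl1, a LIM-homeodomain factor, was detected in 2 of 8 PGCs and in 10 of 10 mesoderm cells (difference -2.43), and Foxf1, needed for lateral and extraembryonic mesoderm, in 0 of 8 PGCs and in 8 of 10 mesoderm cells, at least 2.58-fold lower in PGCs. Hand1 was present in 8 of 8 PGCs at 9.01 ± 0.71 and in 9 of 10 mesoderm cells at 10.50 ± 1.49. Tbx4, a later allantois gene, was detected in no cell of either group. Of 35 Hox and Meis genes, 4 were lower in PGCs and 0 higher. Beside Hoxb1, by which cells were chosen, these were Hoxb2 (0 of 8 PGCs and 8 of 10 mesoderm cells), Hoxd9 (2 of 8 PGCs and 9 of 10 mesoderm cells) and the cofactor Meis2 (-1.01). Hoxb3 and Hoxc6 were each detected in 7 of 8 PGCs and in 10 of 10 mesoderm cells, and 16 of the 35 were detected in none of the 18 cells.

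Adhesion genes differed in both directions. Of 22 epithelial genes, 7 were higher in PGCs and 0 lower (median 0.52), and of 17 mesenchymal genes, 6 were lower and 1 higher (median -0.50). Cdh1, E-cadherin, averaged 10.89 ± 0.44 in PGCs and 8.43 ± 1.64 in mesoderm, and its counterpart Cdh2, N-cadherin, 6.69 ± 1.13 in PGCs and 9.76 ± 0.91 in mesoderm. Esrp1, which directs epithelial splicing, differed by 3.26, the tight junction gene Cldn7 by 3.44 and the junctional scaffold Tjp1 by 1.95. Snai1, the repressor of Cdh1, was at least 6.61-fold lower in PGCs, detected in 0 of 8 PGCs and in 9 of 10 mesoderm cells. Pdgfra, a receptor of mesenchyme, was at the floor in all 8 PGCs and at 8.02 to 9.999 in mesoderm. Of the integrins, Itgav had tight levels of 10.41 ± 0.13 in PGCs and 8.86 ± 0.35 in mesoderm, and Itgb5 was lower in PGCs (difference -2.03).

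**Figure D3:**
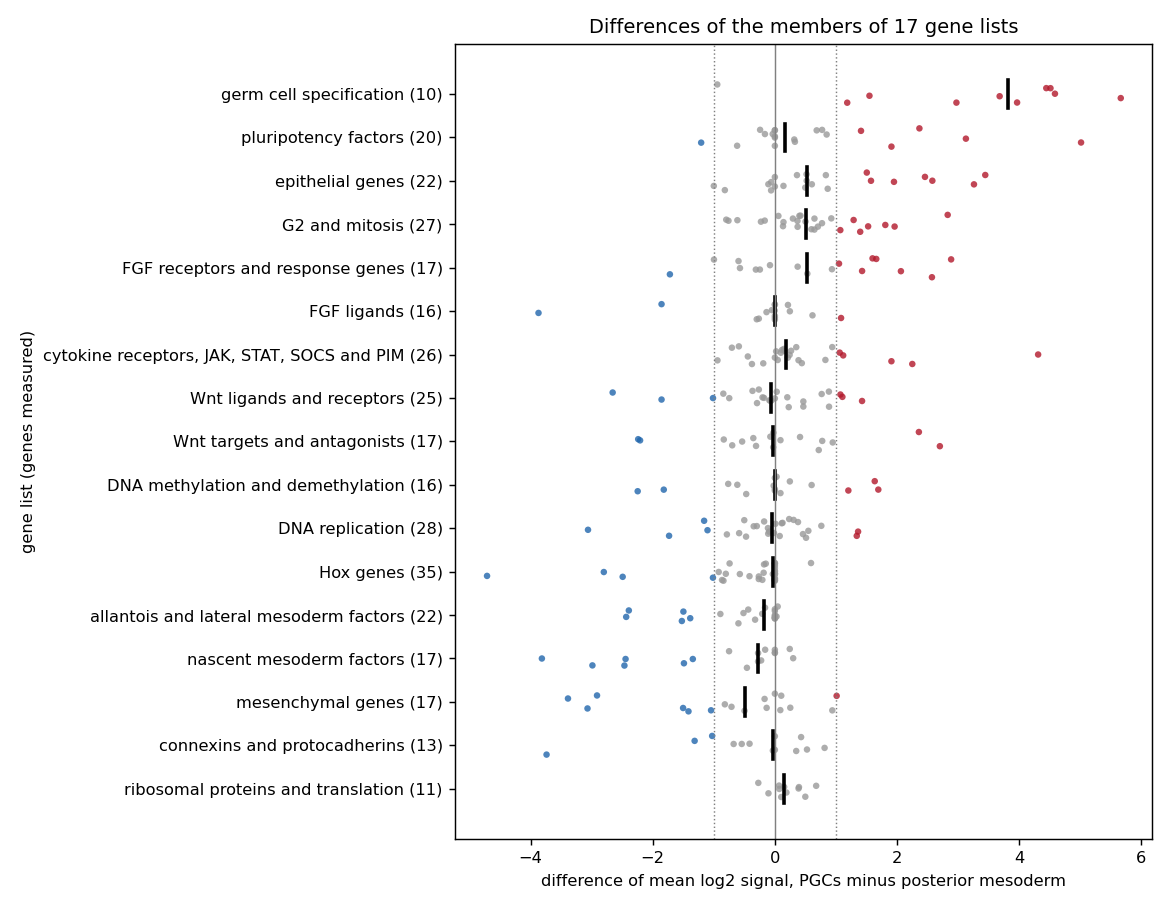
Difference of mean log2 signal, PGCs minus posterior mesoderm, for the measured members of 17 gene lists; each point is a gene, red from 1 upwards and blue from -1 downwards, black bars are list medians and dotted lines stand at 1 and -1. The germ cell specification median lies at 3.82, the other medians between -0.50 and 0.53.

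Genes of FGF signalling went in both directions. Among 16 FGF ligands, Fgf3 and Fgf15 were lower in PGCs and Fgf8 was higher. Fgf15 was at the floor in all 8 PGCs and detected in 7 of 10 mesoderm cells, and Fgf8 was at 8.62 ± 0.76 in PGCs and 7.54 ± 1.66 in mesoderm. Of the receptors, Fgfr1 was lower in PGCs (-1.72), while Fgfr2 was detected in 4 of 8 PGCs and in 0 of 10 mesoderm cells (1.05). Fgf8 and Fgfr2 were under 1 log2 unit in all 4 other scalings. Genes that FGF and ERK signalling is known to induce, most of them feedback inhibitors, were among the higher ones. Dusp6, an ERK phosphatase, ran from 9.76 through a median of 10.41 to 10.91 in PGCs, and from 6.13 through a median of 6.99 to 9.60 in mesoderm. The 2 groups did not overlap, and the difference was 2.89.

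Spred1 (2.57), Spry2 (2.06), Spry1 (1.66) and Il17rd (1.60), which restrain the pathway, and the ETS factor Etv5 (1.43) were also higher in PGCs. In all, 7 of the 17 receptors and response genes were higher and 1 lower, with a median of 0.53 that stayed between 0.19 and 0.99 under every alternative computed on whole groups. Spry4 (-0.25) and Dusp4 (-0.08) did not share the pattern, and Etv4 was detected in 0 of 8 PGCs and in 4 of 10 mesoderm cells. Across the other groups Dusp6 was also high in streak precursors, with means of 10.31 at E/MS and 10.21 at LS/0B. Its level was 8.92 in knockout cells at LS/0B and 8.51 at E/MB, and the mesoderm mean of 7.50 was the lowest of the 11 groups.

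**Figure D4:**
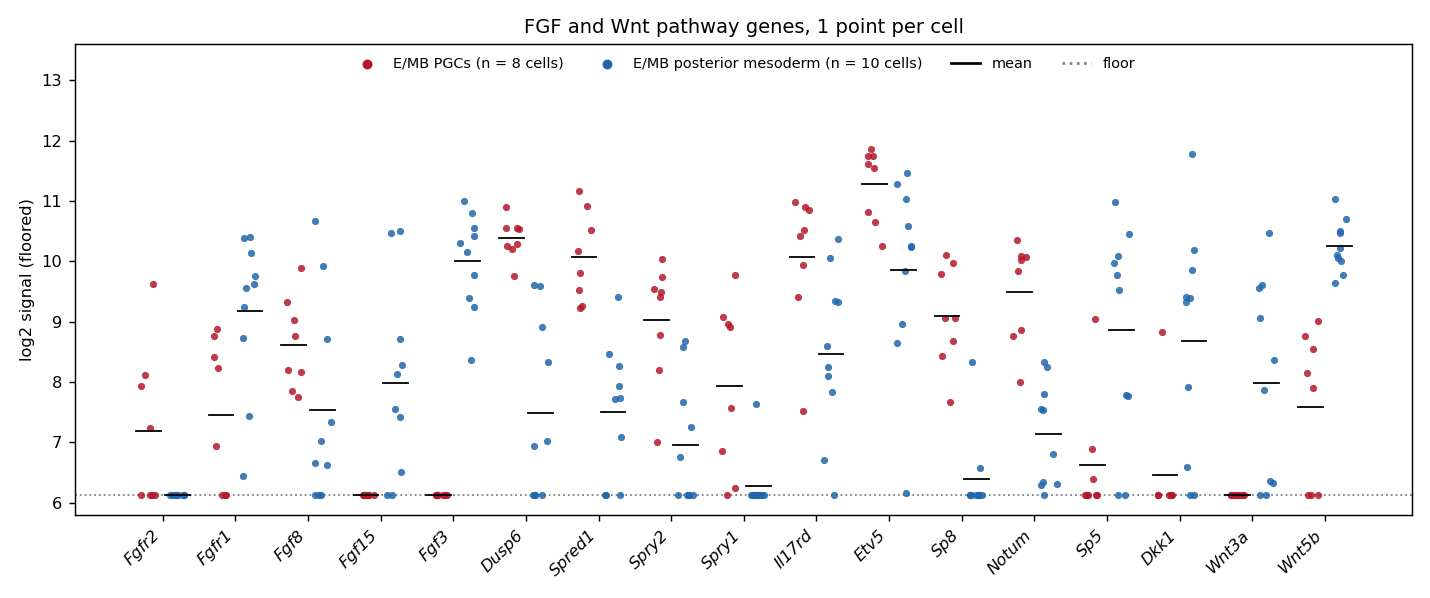
Levels of 17 FGF and Wnt pathway genes as log2 signal with a floor; each point is 1 cell, black bars are means, PGCs (8 cells, red) stand left of posterior mesoderm (10 cells, blue) and the dotted line is the floor of 6.13. Dusp6 and Wnt5b are the genes shown, beside Fgf3, whose 2 groups do not overlap.

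Of 25 Wnt ligands and receptors 3 were higher and 3 lower (median -0.06), against 8.43% and 3.62% of all genes. Wnt3a, an activator of beta-catenin in the streak, was at the floor in all 8 PGCs and detected in 6 of 10 mesoderm cells. Wnt5b was at 7.60 ± 1.26 in PGCs and 10.25 ± 0.43 in mesoderm, with no overlap, whereas Wnt5a was higher in PGCs by 1.07, a difference under 1 in all 4 other scalings. Targets and antagonists had 2 of 17 members each way. The zinc-finger gene Sp5 (-2.24) and the antagonist Dkk1 (-2.21) were lower in PGCs, and the paralogous Sp8 (2.70) and the Wnt-inactivating enzyme Notum (2.36) were higher.

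Of BMP response genes, Smad6, a feedback inhibitor, was detected in 0 of 8 PGCs and in 6 of 10 mesoderm cells, and Msx1 was higher in PGCs (1.65), but Id1 (0.11) and Id3 (-0.40) were detected in all 18 cells at levels less than 1 unit apart. The Notch ligand Dll1 was lower in PGCs (-2.57), detected in 3 of 8 PGCs and in 9 of 10 mesoderm cells. Of Hedgehog pathway genes, the signal transducers Smo (-2.03) and Gli2 (-1.55) and the inhibitor Sufu (-1.91) were lower and the co-receptor Cdon higher (1.88). The retinoic acid binding protein Crabp1 was lower by 1.97. Apela, the embryonic ligand of Aplnr, was detected in 2 of 8 PGCs and in 7 of 10 mesoderm cells. Cxcr4, through which migrating PGCs sense their path, was detected in no cell of either group, while its ligand Cxcl12 was detected in all 18.

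Cytokine pathway genes, Socs2 among them, were higher in 5 of 26 cases and lower in 0 (median 0.19, but -0.14 with scaling to lys). The others included Socs5 (2.25) and Socs7 (1.91), each detected in 7 of 8 PGCs and in 3 of 10 mesoderm cells. Of the partners of KIT, Plcg2, a phospholipase that signals below receptor kinases, was at 9.84 to 11.06 in PGCs and 6.13 to 9.54 in mesoderm (difference 3.17). Src was lower in PGCs, at 7.63 ± 0.55 against 9.02 ± 0.33 in mesoderm.

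Of 16 genes of DNA methylation and demethylation beside Dnmt3b, 2 were lower and 3 higher in PGCs (median 0.00), and the lower ones add or keep methyl groups. Dnmt3b, a de novo methyltransferase, ran from 6.13 through a median of 8.36 to 10.65 in PGCs, and from 10.45 through a median of 10.86 to 11.94 in mesoderm (difference -3.11, or -3.50 without PGC replicate 4). Dnmt3a, the other de novo enzyme, was detected in 1 of 8 PGCs and in 9 of 10 mesoderm cells (-1.82). Uhrf1, which guides Dnmt1 to replicated DNA, was detected in 2 of 8 PGCs and in 9 of 10 mesoderm cells (-2.25). Dnmt1 itself was detected in all 18 cells and differed by -0.47. Tet1, which oxidises methylcytosine, was detected in 7 of 8 PGCs and in 4 of 10 mesoderm cells (1.69), and Uhrf2 (1.64) and the uracil glycosylase Ung (1.20) were higher too.

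In the other groups Dnmt3b averaged 12.66 in PS epiblast, 11.63 in knockout cells at LS/0B and 11.44 in knockout cells at E/MB, and 6.94 and 6.91 in PGCs at EHF and E8.25. Uhrf1 averaged between 9.01 and 10.32 in the 8 groups other than PGCs and between 6.66 and 7.16 in the 3 PGC groups. Of 23 genes for histone and arginine methylation, 3 were higher and 2 lower. The lower ones were Ehmt1, an H3K9 methyltransferase subunit, with 8.13 ± 1.88 in PGCs and 10.63 ± 0.59 in mesoderm, and the H3K27 demethylase Kdm6b (-1.38). The higher ones were the H3K9 demethylase Kdm3a (1.62) and the Polycomb genes Ezh1 (1.32) and Jarid2 (1.08, under 1 in all 4 other scalings). Ehmt2, the partner of Ehmt1, differed by -0.50, and Ezh2 (0.52), Eed (0.53) and Suz12 (0.66) by less than 1.

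Of 28 replication genes, 4 were lower and 2 higher (median -0.05), where 8.43% of all genes were higher. Gins2, a subunit of the replicative helicase complex, was detected in 4 of 8 PGCs and in 10 of 10 mesoderm cells (-3.06), cyclin gene Ccne1 differed by -1.73 and Orc1 by -1.16. Rrm2 (-1.10) became -0.62 without PGC replicate 2. Of 27 G2 and mitosis genes, 7 were higher and 0 lower (median 0.50, but -0.12 with scaling to lys), with Nusap1 (2.83), Mki67 (1.96) and Bub1 (1.81) in front. Among G1 regulators, cyclin D1 (Ccnd1) was at 9.02 ± 1.91 in PGCs and 11.12 ± 0.38 in mesoderm. The CDK inhibitor Cdkn1b was detected in 5 of 8 PGCs and in 1 of 10 mesoderm cells, Rb1 in 5 of 8 PGCs and in 0 of 10 mesoderm cells, and Cdkn1a in 3 of 8 PGCs and in 7 of 10 mesoderm cells. Members of the MYC family were split: Myc was at the floor in all 8 PGCs and detected in 7 of 10 mesoderm cells, while Mycl (10.13 ± 0.32 in PGCs and 8.18 ± 1.17 in mesoderm) and Mycn (1.32) were higher in PGCs.

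Of 20 glycolysis genes, 4 were higher and 1 lower (median -0.04). The neuronal-type glucose transporter Slc2a3 was at 12.59 to 13.17 in PGCs and 7.59 to 12.02 in mesoderm (difference 2.76). Pygl, which breaks down glycogen, was detected in 8 of 8 PGCs and in 0 of 10 mesoderm cells and was at least 6.13-fold higher in PGCs. Hexokinase Hk2 was lower by 1.65. Plagl1, an imprinted zinc-finger gene, had the widest spread over PGCs among the imprinted genes past 1 unit, 9.67 ± 2.41 in PGCs and 6.69 ± 0.90 in mesoderm, detected in 6 of 8 PGCs and in 3 of 10 mesoderm cells. Rhox9, an X-linked homeobox gene, was detected in 5 of 8 PGCs and in 0 of 10 mesoderm cells (8.48 ± 2.44 in PGCs).

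The 10 genes with the highest means over both groups were 9 ribosomal protein genes and Tpt1, between 13.29 and 13.47 in PGCs, with differences of -0.04 to 0.19. They stand at the top of the scale, and nothing is read from how close the groups are there. Actb (0.03), Actg1 (-0.01), Tubb5 (-0.06), Pgk1 (-0.03) and Hspa8 (0.02) were near 0 as deposited, but the median of the housekeeping list, 0.0175, became -0.60 with scaling to lys. Exceptions among 11 housekeeping genes were Hprt, at 8.52 ± 1.16 in PGCs and 10.58 ± 0.45 in mesoderm, and Gusb (1.23, with 1 other detected probe set of the opposite sign). Hprt averaged 9.97 and 9.83 in the later PGC groups.

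Markers of further cell types were counted in both groups. Of all 18193 genes, 6288 were detected in no cell of either group, which is the background for the counts below. Of 17 blood and endothelium genes, 12 were in no cell of either group, among them Gata1, Tal1, Cdh5, Pecam1 and the embryonic globins Hbb-bh1 and Hba-x, and the mean level of the list ran from 6.13 to 6.61 in PGCs and 6.27 to 6.82 in mesoderm. Etv2, a regulator of blood and endothelial fate, was detected in 0 of 8 PGCs and in 8 of 10 mesoderm cells (-2.44), and Gata2, a factor of blood progenitors, in 3 of 8 PGCs and in 8 of 10 mesoderm cells (-1.55). Lmo2, a cofactor in blood formation, was higher in PGCs (2.47). Of 14 endoderm genes 6 were in no cell, with list levels of 6.45 to 7.10 in PGCs and 6.21 to 6.70 in mesoderm. Trophoblast genes were in no cell for 4 of 9 (6.50 to 7.62 in PGCs and 6.14 to 7.03 in mesoderm), and neural plate genes for 7 of 14 (6.19 to 6.76 in PGCs and 6.18 to 6.41 in mesoderm). Of the 9 trophoblast genes, 4 were in no PGC and 7 in no mesoderm cell. In PGCs 2 of these 9 were higher and 1 lower by at least 1 log2 unit, against 8.43% and 3.62% of all genes. The part of other cell types in the results was not tested beyond these counts.

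Levels in the other 9 groups place these leading genes along the lineage. By the rule that chose them, the 15 genes higher in PGCs were each detected in at least 75% of E/MB PGCs. All 15 also reached that share in PGCs at EHF and at E8.25, 3 of them in PS epiblast, 2 at E/MS, 2 at LS/0B, 6 in Blimp1+ Hoxb1+ cells labelled E/MB and 3 in those labelled EHF, 3 in knockout cells at LS/0B and 2 at E/MB, and 1 in mesoderm. Among genes past 1 log2 unit, 233 of the 1534 higher in PGCs (15.2%) and 148 of the 659 lower ones (22.5%) shared a pattern of group means. In it PS epiblast and all 3 PGC groups lay apart from the mesoderm, Blimp1+ Hoxb1+ and knockout groups. The E/MS and LS/0B precursors were left out of this count. The order of E/MB PGCs and mesoderm was fixed by the choice of genes, and the share over all genes was not computed. Sox2 averaged 9.71 in PS epiblast, 7.89 at E/MS, 7.95 at LS/0B, 11.15 in E/MB PGCs, 11.07 at EHF and 11.53 at E8.25, and 6.13 in mesoderm and in both Blimp1+ Hoxb1+ groups. Socs2 averaged 10.40 in PS epiblast, 10.21 at E/MS, 9.14 at LS/0B and 10.62 in E/MB PGCs, and lay between 6.31 and 8.68 in mesoderm, Blimp1+ Hoxb1+ and knockout cells. Kit, by contrast, was between 6.30 and 6.73 in the 3 earlier groups and at 10.25, 10.81 and 11.18 in the PGC groups.

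**Figure D5:**
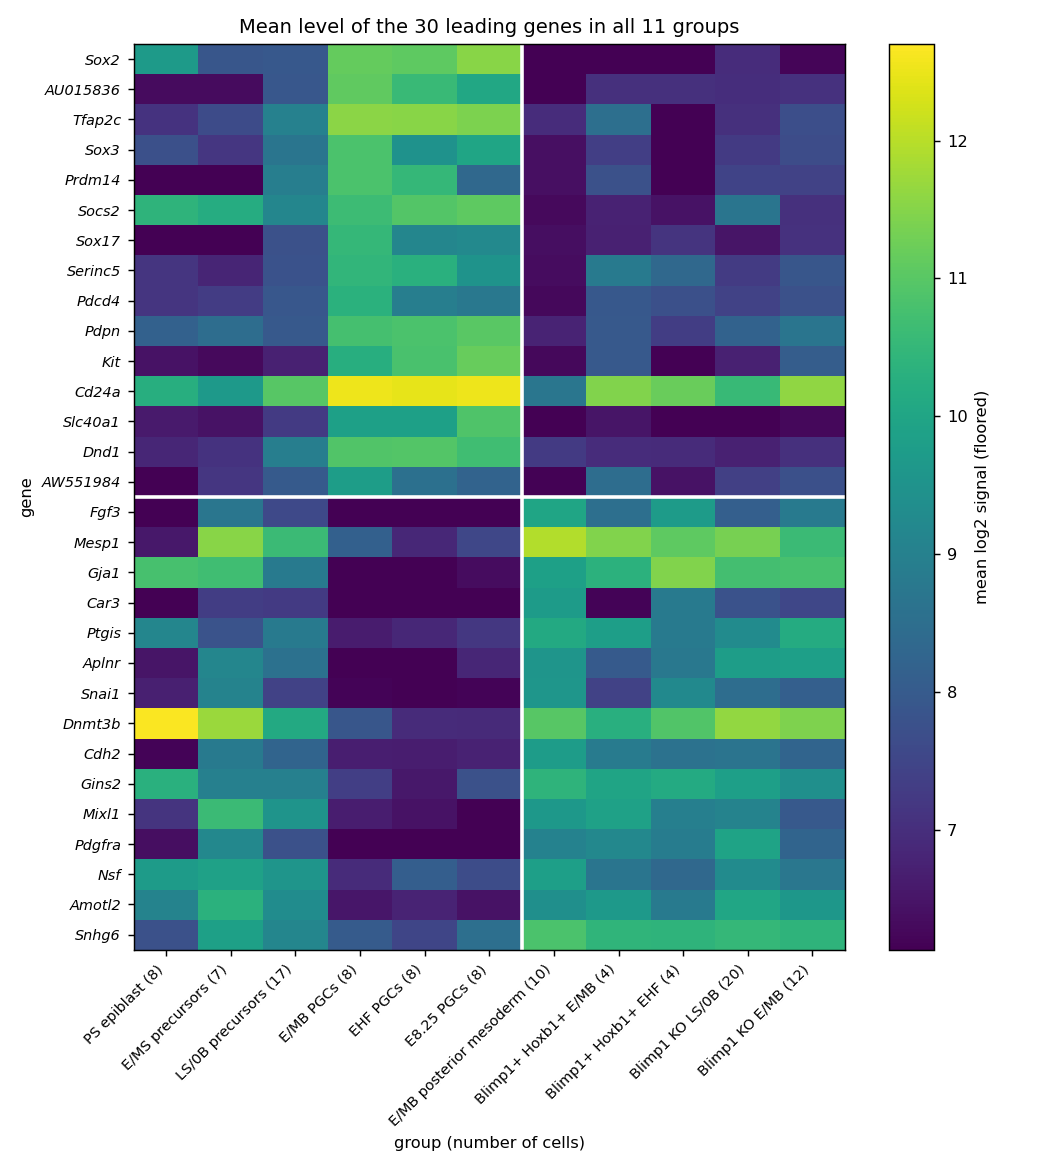
Mean log2 signal (floored) of the 15 leading genes higher in PGCs (above the white line) and the 15 leading lower genes (below it) in all 11 groups; the lineage stands left of the vertical line in order of stage, and mesoderm, Blimp1+ Hoxb1+ and Blimp1 knockout cells right of it, with the number of cells in brackets. Sox2 is at 11.15 in E/MB PGCs and 6.13 in mesoderm, Fgf3 at 6.13 in E/MB PGCs and 10.003 in mesoderm.

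The 15 lower genes were likewise chosen among those in at least 75% of mesoderm cells. All 15 reached that share in Blimp1+ Hoxb1+ cells labelled EHF, 12 in those labelled E/MB, 13 in each knockout group, 9 at E/MS and at LS/0B, 7 in PS epiblast and 2 in each PGC group. Fgf3 was at 6.13 in PS epiblast, 8.70 at E/MS, 7.58 at LS/0B and 6.13 in all 3 PGC groups, and between 8.12 and 10.003 in mesoderm, Blimp1+ Hoxb1+ and knockout cells. Mesp1 was at 6.56 in PS epiblast, 11.53 at E/MS, 10.60 at LS/0B, 8.14 in E/MB PGCs, 6.85 at EHF and 7.53 at E8.25. Gja1 was at 10.78 in PS epiblast and was detected in 1 of 8 PGCs at E8.25 and in none at E/MB or EHF. Ptgis, prostacyclin synthase, and Amotl2, a junctional angiomotin, averaged at least 7.82 in every group but the PGCs. Nsf, which recycles SNARE complexes, and the small RNA host gene Snhg6 averaged 8.10 and 7.50 in PGCs at EHF. Car3, a carbonic anhydrase, was at the floor in PS epiblast and all PGC groups and highest in mesoderm (9.74).

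The genes whose 11 group means ran most like those of the 3 markers were listed by Pearson's r, as a description over means that share arrays and amplification. For Sox2 they were Atp1b1 (0.98), Clca4b, Plcg2, C030004G16Rik and Gstm1 (0.96). For Socs2 they were Slc25a5 (0.96), Wdr12, Taok2, L1td1 and Galnt3 (0.93). For Fgf3 they were Snai1 (0.94), Mfn1, Gadd45g, Cdh2 and D730045A05Rik (0.93). Of the genes listed for Sox2, Clca4b was near the floor, at 6.13 to 6.54 in E/MB PGCs and at 6.13 in every mesoderm cell.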

How the data were processed

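Whole-transcript cDNA of single cells was measured on mouse Affymetrix arrays. The deposited values are linear array intensity per probe set, computed with MAS5, per the submitters' processing notes. Neither its version nor a scaling target is given in the sources used here. Per the labels' protocols, cDNA was made from unpurified lysates and amplified by PCR, so rare transcripts can be lost at random. Precision is limited by the number of arrays. The 106 columns were mapped to groups by their titles or source names. Of 45101 probe sets, 34945 had 1 gene symbol in the platform annotation and 932 several, which were not used. For each of the 18193 genes, the probe set with the highest mean over all cells was taken.

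Background came from 126 probe sets for genes of keratin-associated proteins (Krtap) and of olfactory, vomeronasal and taste receptors (Olfr, Vmn, V1r, V2r, Tas2r). As floor served the 90th percentile of these, as the median of all arrays (a signal of 70.2), and the detection limit the 95th percentile on each array (96.2 to 166 in the 18 cells). A lower bound of a fold is the brighter group's mean over the dimmer group's mean of, per cell, the higher of its limit and its own value. It makes no allowance for scaling between array sets. The lys controls averaged 12.09 on PGC arrays and 11.47 on mesoderm arrays. Means, medians, SDs, ranges, counts, Pearson's r and Dixon's ratio were computed, with Python 3.11.15, numpy 2.4.6 and pandas 2.3.3, and the steps were tested on simulated data.

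Named genes were the 15 largest differences each way among genes detected in at least 75% of cells of the higher group, members of 44 lists (841 symbols, 779 measured, of which 101 were higher and 77 lower by at least 1 log2 unit), Sox2, Socs2 and Fgf3, the genes used to choose cells, the 10 most variable genes of each group among those detected in 40% to 60% of its cells, the 10 highest in both, and the 5 most like each marker. The members, lists and rules were chosen with earlier results of these data known. Alternatives were other floors, probe set averaging, 4 scalings, a detection filter and leaving out each cell; 2 were added after seeing the data.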

Additional observations from a re-analysis of the deposited data

Results flagged for a closer look

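Single cells stood apart from the rest of their group in 8 of 120 groups of values tested by Dixon's ratio. Chance flags about 1 in 20, or about 6 of the 120, so the 8 are close to the number expected by chance. All values are log2 levels. PGC replicate 4 had Socs2 at 7.79, against 10.07 to 11.40 in the other PGCs. PGC replicate 7 had Sox2 at 9.43, against 10.84 to 11.79. In PGC replicate 8, Serinc5 was at 9.18 against 10.37 to 10.84, the mean of the G2 and mitosis list was 8.75 against 10.10 to 10.93, and that of the imprinted list 9.05 against 7.64 to 8.20. PGC replicate 6 had a mean of 7.60 for FGF receptors and response genes, against 8.16 to 8.59. The chemokine and apelin list averaged 7.11 in PGC replicate 5 and 6.37 to 6.70 in the other PGCs. Among mesoderm cells, replicate 2 had a mean of 8.05 for cell cycle inhibitors and G1 regulators, against 7.28 to 7.68 in the others.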

How the results depend on the processing

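Counts of genes past 1 log2 unit depended on the floor and the scaling, and the cause was not tested. Against 1534 higher and 659 lower in PGCs, there were 3749 and 2154 with no floor, 731 and 379 with the mean of all probe sets, and 740 and 1783 with scaling to the lys controls, an alternative chosen after seeing the data. Only the lower count moved by over 1.5 times with a floor 2 times as high (1029 and 356), quantile normalization (1129 and 1007) and equal medians (1132 and 1023), and neither did with poly-A scaling (1196 and 965), with the detection filter (1517 and 652) or without the genes whose group means place mesoderm, Blimp1+ Hoxb1+ and knockout cells apart from PS epiblast and PGCs (1301 and 511, also chosen after seeing the data). The 223 genes higher in every PGC became 127 with quantile normalization, 122 with equal medians, 67 with poly-A and 37 with lys scaling, while the 90 lower in every PGC stayed between 66 and 130. The median of the broadly detected genes, 0.16, became -0.0685 with quantile normalization, -0.085 with equal medians, -0.049 with poly-A and -0.39 with lys scaling.

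List medians moved by more than the SD of their scores as follows. With lys scaling they were 3.27 for germ cell specification, -0.20 for Sox factors, -0.14 for cytokine pathway genes, -0.35 for KIT partners, -0.40 for Wnt targets, -0.30 for BMP ligands, -0.93 for BMP response, -0.44 for retinoic acid, -0.94 for chemokine and apelin, -0.30 for Hox, -1.11 for mesenchymal, 0.14 for epithelial, -0.67 for replication, -0.20 for Bcl2 family, -0.66 for glycolysis, -0.42 for respiratory chain, -0.39 for iron and heme, -0.47 for ribosomal and -0.60 for housekeeping genes. With equal medians they were 3.57 for germ cell specification, -0.15 for Hox, -0.77 for mesenchymal, -0.31 for glycolysis, -0.14 for respiratory chain and -0.12 for ribosomal genes. Poly-A scaling gave -0.16 for Hox, -0.73 for mesenchymal, -0.11 for respiratory chain and -0.079 for ribosomal genes, and quantile normalization -0.73 for mesenchymal and -0.12 for respiratory chain genes. The germ cell median was 3.19 with the higher floor and 3.33 with probe sets averaged.

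With no floor the medians were 5.42 for germ cell specification, 0.46 for later germ cell, 0.52 for pluripotency, -0.20 for FGF ligands, -0.18 for ephrins, -1.17 for nascent mesoderm, -0.26 for Hox, -1.12 for mesenchymal, 1.53 for epithelial, -0.42 for connexins and protocadherins, 0.42 for cell cycle inhibitors, 0.45 for histone methylation, -0.32 for Myc family, 0.31 for endoderm, 0.61 for trophoblast, 0.30 for neural plate and 1.12 for X and Y genes. The filter for genes detected in at least 50% of either group removes members at the floor by construction, and left 1.64 for later germ cell, 1.66 for pluripotency, -0.31 for primed epiblast, 0.58 for Sox, 0.44 for cytokine, -0.30 for FGF ligands, 0.99 for FGF response, -0.53 for Hedgehog, -0.46 for retinoic acid, -0.57 for ephrins, -1.54 for chemokine and apelin, -1.49 for nascent mesoderm, -1.50 for allantois, -0.97 for Hox, -1.04 for mesenchymal, 0.86 for epithelial, 0.47 for integrins, -0.85 for connexins, 0.48 for histone methylation, 0.54 for Myc family, -1.55 for blood and endothelium, 0.97 for endoderm, 1.04 for trophoblast, 0.42 for neural plate and 0.99 for X and Y genes.

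Of 189 named genes past 1 log2 unit none changed sign under these settings, but 37 came under 1 with lys scaling, 65 with probe sets averaged, 47 with the higher floor, 2 with no floor and 20 or 21 with each of the other 3 scalings. Leaving out each cell in turn gave 1432 to 1707 genes higher and 619 to 716 lower. It moved 3 of these genes by over 1.5 times, Rrm2 (-1.10, or -0.62 without PGC replicate 2), Plac1 (-1.03, or -0.67 without mesoderm replicate 4) and Tdgf1 (-1.21, or -0.77 without mesoderm replicate 7). Nsf, at -2.90, was the only leading gene to come under 1 with another floor, scaling or probe set averaging, at -0.89. The next smallest values were -1.23 for Pdgfra, 1.29 for Socs2, 1.39 for AW551984 and -1.44 for Car3. Leaving out cells with Xist was not run, because no cell of either group had it. No paired analysis was possible because the cells carry no pairing between groups.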

Other observations

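Some genes varied within each group between the floor and a high level. Among the 848 genes detected in 40% to 60% of PGCs, the widest spread was that of Cds2, which makes a phospholipid precursor: it was detected in replicates 1, 3, 6 and 8, up to 11.61, and the median was 7.98. Kctd15 and Aasdh shared their PGCs, replicates 2, 4, 5 and 7, with highest levels of 11.25 and 10.84. The other 7 were Nsmf, Creg1, Mettl16, Tsacc, Ghr (the growth hormone receptor), Mtmr12 and Marveld3, with SDs of 2.05 to 2.43.

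Among the 1944 such genes in mesoderm, Krt18, an epithelial keratin, was detected in 6 of 10 cells and reached 11.79. The totals of 848 and 1944 cannot be compared, as the window takes only 4 of 8 PGCs but several counts of 10 mesoderm cells. Plac1, a placental gene, and Limch1 were detected in the same mesoderm cells, replicates 1, 2, 4, 5 and 10. The immediate early genes Egr1 and Fos were detected in 5 of 10 each, with replicates 1, 3 and 7 in common, and Mest, an imprinted gene, in 6 of 10. Fabp7, S1pr3, Frzb and Slpi had SDs of 1.92 to 2.21.

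Correlations between cells over genes, which are not independent, were 0.754 to 0.838 among PGCs, 0.767 to 0.889 among mesoderm cells and 0.679 to 0.813 between a PGC and a mesoderm cell. Mesoderm replicates 4 to 6 correlated with one another at 0.847 to 0.853 and with replicates 7 to 9 at 0.767 to 0.777, a split chosen after the values were seen.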
